A study of Mus musculus with 28 samples.

Results

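The genes that encode the subunits of glutamate and GABA receptors were read in 4 lists of histone marks from striatal neurons, 2 of H3K4me3 and 2 of H3K27me3. Members were all protein-coding autosomal genes of the GENCODE annotation of mm10 (GRCm38) whose symbol belongs to the Gria, Grin, Grik, Grid, Grm, Gabr or Gabbr series, with 1 gene left out by name. There were 42 of them among 20807 protein-coding autosomal genes, namely 16 ionotropic glutamate, 8 metabotropic glutamate, 16 GABA-A and 2 GABA-B receptor genes. The symbol series also holds 4 X-linked genes (Gria3, Gabra3, Gabre and Gabrq), which the autosomal rule leaves out.

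The lists come from CUT&RUN (CnR), in which an antibody tethers a nuclease to chromatin and the DNA released around the mark is sequenced. Nuclei carried the nuclear envelope tag Sun1-sfGFP and were captured by affinity (INTACT) from the striatum of adult C57BL/6J mice, 1 striatum per sample. The tag was switched on by Cre in 2 lines. In Sun1-sfGFP;A2a-cre mice it marks A2a medium spiny neurons (MSNs), and in Sun1-sfGFP;Drd1-cre mice it marks D1 MSNs, so a group is what each Cre driver labels. Both groups carried the Sun1-sfGFP knock-in and the labels name no treatment. Each list pools 2 replicates of 1 cell type and 1 mark, so that no value below has an error between mice and no difference between A2a and D1 was tested. Per the labels, the H3K4me3 lists come from the Abcam antibody and the H3K27me3 lists from the Active Motif antibody. For the D1 H3K27me3 samples the source name in the labels reads A2a while the title and the cell type say D1. Here they count as D1, and each comparison of H3K27me3 between A2a and D1 below rests on that reading.

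H3K4me3 marks the start sites of genes that are active or poised, and H3K27me3 is laid down by the Polycomb complex PRC2 over genes held silent in a cell type. Ionotropic glutamate receptors (AMPA, NMDA, kainate and delta) and GABA-A receptors are channels assembled from several subunits, and metabotropic glutamate (mGlu) and GABA-B receptors act through G proteins. MSNs are GABAergic projection neurons that receive dense glutamatergic input from cortex and thalamus, and the subunits a neuron makes set the speed, ion selectivity and drug sensitivity of its synapses.

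The A2a lists were the larger ones for both marks. They held 22551 H3K4me3 peaks against 20080 in D1, and 60191 H3K27me3 islands over 301.0 Mb against 45760 over 184.1 Mb. Islands averaged 73.4 reads per kb in A2a and 42.8 in D1, and read counts are not scaled between the lists. A promoter H3K4me3 peak was found in both lists at all 4 markers of A2a neurons, all 4 of D1 neurons and all 4 of MSNs in general. The promoter island of Drd1, the dopamine D1 receptor gene, held 1958 reads over 16.8 kb in A2a and 86 over 1.8 kb in D1, whereas Adora2a, the adenosine A2a receptor gene, had none in A2a and 4153 reads over 45.0 kb in D1. Among markers of other cells, a promoter H3K4me3 peak stood at 1 of 4 astrocyte genes (Slc1a2) in each list, at 2 of 4 oligodendrocyte genes in each list (Mbp in both, Mog in A2a, Mag in D1) and at 1 of 4 microglial genes in A2a (P2ry12) and 0 in D1. What other cells contributed to the values below was not tested.

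Promoter windows began 2 kb before the annotated start (TSS) and ended 1 kb after it, and a mark was counted there if it overlapped by at least 1 bp. An H3K4me3 peak lay at the promoter of 31 of the 42 receptor genes in A2a, where 59.3% of all genes had one, and of 30 in D1, where 56.8% had one. An H3K27me3 island lay at 9 receptor promoters in A2a (22.4% of all genes) and at 7 in D1 (15.8%). The shares of receptor genes with an island, 21.4% in A2a and 16.7% in D1, were thus close to those of all genes. Both marks met at 4 promoters in A2a (Grin3a, Grik1, Grm2 and Grm8) and at 3 in D1 (the same without Grm2), beside 9.84% and 5.79% of all genes. Neither mark was present at 6 receptor promoters in A2a and 8 in D1, beside 28.2% and 33.2% of all genes.

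Of the 42 genes, 40 fell in the same promoter class in both cell types, as did 88.9% of all genes. Grm2, which encodes a presynaptic group II mGlu receptor, carried both marks in A2a and neither in D1. Gabrr3, a GABA-A rho subunit, carried H3K27me3 in A2a and neither mark in D1. Thus 1 promoter had an H3K4me3 peak in A2a alone (2.61% of all genes) and 0 in D1 alone (0.154%), and 2 promoters had an island in A2a alone (7.65%) and 0 in D1 alone (1.05%). None of these shares of the receptor genes stood far from that of all genes. The plot of marks at each promoter shows the 4 lists side by side.

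**Figure D1:**
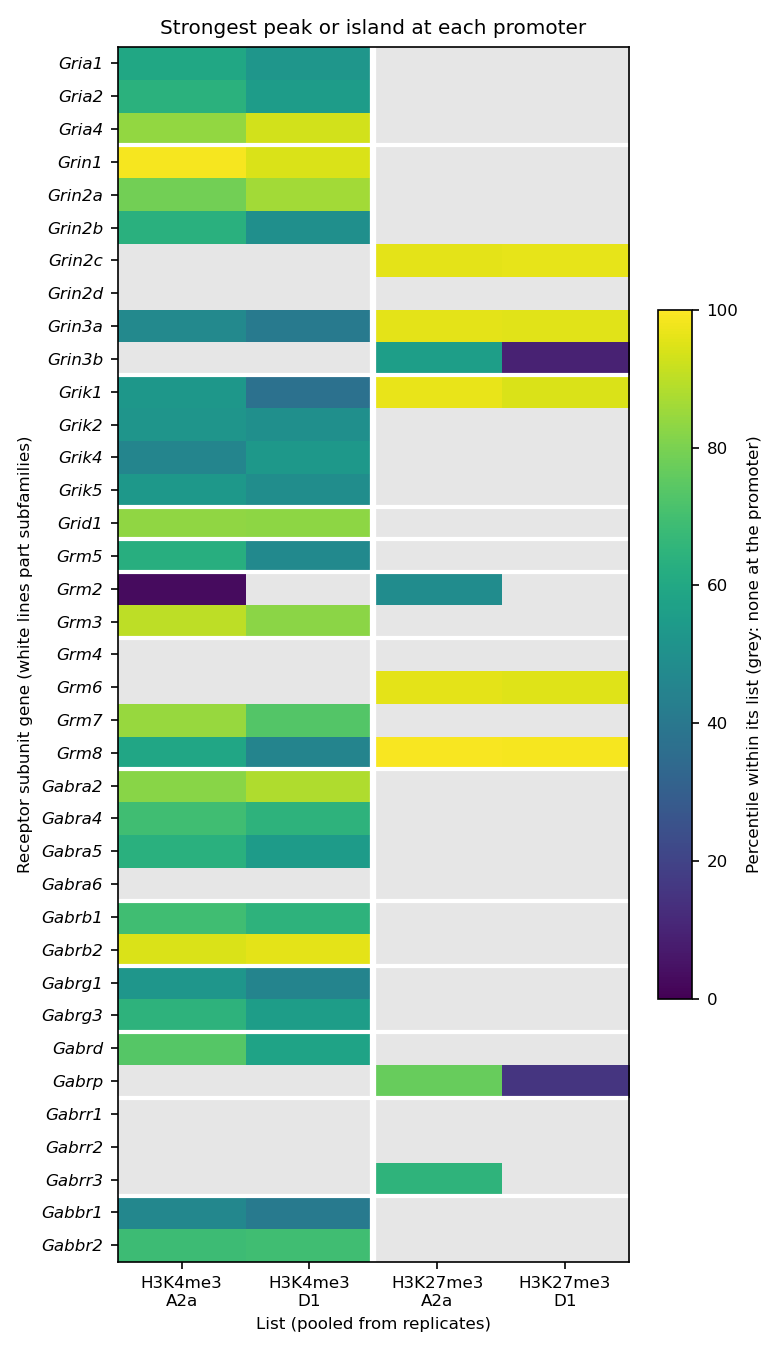
Strongest mark at the promoters of 37 receptor genes (rows, grouped by subfamily) in the 4 pooled lists (columns). Colour gives the percentile of the peak by −log10 q or of the island by reads within its own list, and grey marks promoters without one. H3K4me3 fills 27 rows in A2a and 26 in D1, H3K27me3 fills 9 and 7, and only Grm2 and Gabrr3 change class between the cell types.

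Promoter sequences are shown for 7 receptor genes that between them cover each combination of marks. Each run holds the bases just before the start (RefSeq, GRCm38.p6), written 5′ to 3′ on the strand of the gene. The Grm8 run stops before its GENCODE start, 32 bp upstream of the RefSeq start, and is therefore shorter, at 218 bases. Every CG dinucleotide is in capitals, because CpG-dense promoters are the usual sites of H3K4me3 and of Polycomb marks in mammals. Of the 42 genes, 28 had an entry in the sequence table and 26 had one starting within 500 bp of the GENCODE start. That is under 80% of the genes, so no summary of CpG content over the receptor genes was made. Among all genes with such a window of 300 bases, which also spans the first bases after the start, 64.7% of 13123 held at least 10 CG dinucleotides.
Grin1 (H3K4me3 only, chr2:25319188-25319437, minus strand): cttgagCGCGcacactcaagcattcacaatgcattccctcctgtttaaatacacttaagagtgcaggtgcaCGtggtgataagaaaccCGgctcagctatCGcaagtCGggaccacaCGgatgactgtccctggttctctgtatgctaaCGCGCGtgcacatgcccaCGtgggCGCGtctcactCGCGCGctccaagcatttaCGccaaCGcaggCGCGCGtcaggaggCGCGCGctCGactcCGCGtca
Gabrg1 (H3K4me3 only, chr5:70842618-70842867, minus strand): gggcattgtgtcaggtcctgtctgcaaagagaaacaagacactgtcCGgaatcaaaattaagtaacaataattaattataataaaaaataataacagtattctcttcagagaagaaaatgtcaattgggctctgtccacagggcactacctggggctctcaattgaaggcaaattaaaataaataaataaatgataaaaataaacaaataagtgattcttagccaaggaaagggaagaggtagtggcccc
Grm8 (both marks, chr6:28135179-28135396, minus strand): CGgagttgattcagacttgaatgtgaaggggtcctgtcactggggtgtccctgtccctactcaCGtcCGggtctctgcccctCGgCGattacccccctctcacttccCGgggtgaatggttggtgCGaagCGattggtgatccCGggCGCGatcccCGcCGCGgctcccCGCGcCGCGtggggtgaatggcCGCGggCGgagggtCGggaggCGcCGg
Grm2 (both marks in A2a, neither in D1, chr9:106656110-106656359, minus strand): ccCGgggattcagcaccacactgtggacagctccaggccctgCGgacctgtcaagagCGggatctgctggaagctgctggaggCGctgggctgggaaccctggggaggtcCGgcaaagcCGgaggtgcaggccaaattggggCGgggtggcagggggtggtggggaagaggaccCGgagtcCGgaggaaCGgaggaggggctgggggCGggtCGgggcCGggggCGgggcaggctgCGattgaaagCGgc
Grin2c (H3K27me3 only, chr11:115267244-115267493, minus strand): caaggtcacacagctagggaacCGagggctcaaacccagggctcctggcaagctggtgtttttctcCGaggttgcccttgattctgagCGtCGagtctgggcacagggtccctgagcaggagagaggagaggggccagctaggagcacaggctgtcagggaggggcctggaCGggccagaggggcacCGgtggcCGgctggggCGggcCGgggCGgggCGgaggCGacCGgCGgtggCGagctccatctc
Grm6 (H3K27me3 only, chr11:50850435-50850684, plus strand): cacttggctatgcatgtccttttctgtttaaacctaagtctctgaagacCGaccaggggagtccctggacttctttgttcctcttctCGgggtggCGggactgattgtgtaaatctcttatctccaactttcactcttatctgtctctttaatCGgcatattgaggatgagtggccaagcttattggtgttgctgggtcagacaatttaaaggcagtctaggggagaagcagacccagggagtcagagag
Gabra6 (neither mark, chr11:42321073-42321322, minus strand): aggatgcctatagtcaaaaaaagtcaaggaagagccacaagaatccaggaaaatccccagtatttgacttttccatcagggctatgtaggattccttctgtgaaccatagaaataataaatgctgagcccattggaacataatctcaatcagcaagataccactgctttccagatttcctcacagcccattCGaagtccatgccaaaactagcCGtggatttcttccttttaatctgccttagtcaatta

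The runs shown differ widely in CG dinucleotides. Grin1 held 27 of them in 250 bases and Grm8 held 24 in 218 bases, and both had an H3K4me3 peak. Gabrg1 held 1 in 250 bases, with a GC content of 35.6%, and still carried an H3K4me3 peak in both lists. Its 300-base window held 3, where 91% of the windows with H3K4me3 alone in A2a over all genes held at least 10. Grm2 held 16 and Grin2c held 15, in 250 bases each, and the H3K4me3 lists gave no peak at Grin2c. Grm6 and Gabra6, with 4 and 2, were CpG-poor, and the first carried H3K27me3 while the second carried neither mark. A dinucleotide count describes the sequence only.

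AMPA receptors carry the fast excitatory current, and all 3 of their autosomal genes had a promoter H3K4me3 peak in both lists and no island over the promoter or the gene. Gria1 encodes GluA1, Gria2 the subunit that makes the channel impermeable to calcium, and Gria4 a rapidly gating subunit. In each list peaks were ranked by −log10 q and given as a percentile, the share of the list's peaks below them. The Gria4 peak stood at percentile 83.8 in A2a but at 93.3 in D1, the largest gain in D1 among the receptor genes, and its fold enrichment over local background was 5.61 there and 6.81 in D1. Gria1 stood at 59.7 in A2a and 52.7 in D1, and Gria2 at 63.8 and 55.1. The Gria2 peak was among the longest at any receptor promoter, 3891 bp in A2a and 3791 bp in D1. The Gria1 peak measured 2818 bp in A2a and 1105 bp in D1, where the list placed a second peak of 1466 bp downstream, so that the D1 list splits the region that is 1 peak in A2a. Gria4 was likewise 1 peak of 2554 bp in A2a and 2 peaks, of 1609 and 550 bp, in D1.

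NMDA receptors are calcium-permeable channels that need an obligatory GluN1 subunit with GluN2 or GluN3 partners. Grin1, for GluN1, had a short and strong promoter peak, of 1580 bp and 8.61-fold enrichment in A2a and of 1681 bp and 7.68-fold in D1, at percentiles 98.5 and 94.2. No other receptor gene had a higher fold enrichment in A2a. Grin2a and Grin2b, for the GluN2A and GluN2B subunits of forebrain synapses, also carried H3K4me3 alone, at percentiles 78.8 and 63.7 in A2a and 86.3 and 49.7 in D1. Grin2a ranked higher in D1 and Grin2b higher in A2a.

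The other NMDA receptor genes differed among themselves, with H3K27me3 alone at Grin2c and Grin3b, both marks at Grin3a and neither at Grin2d. Grin2c, whose GluN2C subunit is best known from cerebellar granule cells, carried no H3K4me3 peak at its promoter, which lay under an island of 12.4 kb with 1186 reads in A2a and of 11.0 kb with 527 reads in D1. Exact 95% Poisson intervals, which cover counting error only, ran from 1119 to 1255 reads and from 483 to 574 reads. Islands covered 81.2% of the Grin2c gene in A2a and 66.8% in D1, the largest share of any receptor gene in either list. Grin3b, for GluN3B, a subunit known from motor neurons, had an island of 3.0 kb with 234 reads in A2a and of 1.6 kb with 62 reads in D1. The D1 island ranked low in its list, at percentile 9.75 by reads, against 56.1 in A2a.

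Grin3a, for GluN3A, a subunit that lowers calcium entry and is prominent in early development, carried both marks. Its H3K4me3 peak of 1770 bp in A2a and 1613 bp in D1 sat at percentiles 47.1 and 41.1. The island over the same promoter spanned 11.0 kb with 1165 reads in A2a and 11.2 kb with 483 reads in D1, at percentiles 95.9 and 95.6 by reads, so that it was as long in D1 as in A2a. Grin2d, for GluN2D, had neither mark at its promoter in either list. It had 2 islands further inside the gene in each list, covering 28.8% of it in A2a and 9.46% in D1. A strong H3K4me3 peak 4.93 kb inside the gene, 10.0-fold enriched in A2a and 10.4-fold in D1, lay on the start of the overlapping gene Kdelr1.

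All 4 kainate receptor genes read here had a promoter H3K4me3 peak in both lists. Kainate receptors modulate transmitter release and slow excitatory current, with Grik1 and Grik2 encoding low-affinity and Grik4 and Grik5 high-affinity subunits. Grik1 was the kainate gene with both marks. Its H3K4me3 peak ranked at percentile 53.1 in A2a against 37.3 in D1, a difference of 15.8 points that was the largest toward A2a among the receptor genes. Its promoter island spanned 11.2 kb with 1320 reads in A2a (exact 95% Poisson interval 1250 to 1393) and 4.8 kb with 415 reads in D1 (376 to 457). Reads were denser there than in the islands of either list as a whole, at 118 per kb in A2a and 86.5 per kb in D1. By the strongest peak touching each promoter window, Grik2 was the least enriched of the receptor genes with a peak (2.35-fold in A2a, 2.40-fold in D1). Its window held 2 peaks in each list, and that strongest one reached only the downstream edge of the window. The enrichment of the other peak, nearer the start, is not reported here. The Grik4 peak ranked higher in D1, at percentile 53.1 against 45.6 in A2a, with a fold enrichment of 8.29 against 7.07. No receptor gene exceeded it in fold enrichment in D1.

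Grid1 encodes a delta receptor, one of the synaptic organizers of the glutamate receptor family. Its peak measured 2813 bp in A2a and 2693 bp in D1, at percentiles 83.4 and 83.0, and its promoter had no island.

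Group I mGlu receptors couple to phospholipase C and are postsynaptic in MSNs, and Grm5 carried H3K4me3 alone. It had the longest promoter peak of the receptor genes in A2a, 4043 bp, and one of 3687 bp in D1, yet it ranked only at percentiles 62.9 and 47.6 by −log10 q, with fold enrichments of 3.64 and 3.28. Its length thus came with a low enrichment.

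In group II, Grm3 had a peak of 3270 bp in A2a and 3204 bp in D1, at percentiles 89.9 and 82.6, and no island. Its partner Grm2 had an island of 2.2 kb with 206 reads over the promoter in A2a (exact 95% Poisson interval 179 to 236) and none in D1, where the closest island was 103 kb from the window. In A2a an H3K4me3 peak of 335 bp with a fold enrichment of 3.52 lay in the same window, at percentile 2.92 of its list. That peak had a −log10 q of 4.37 and is lost at a minimum of 5, after which Grm2 carries H3K27me3 alone in A2a.

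The group III receptors are presynaptic, except that Grm6 serves the ON bipolar cells of the retina. The Grm6 promoter had no H3K4me3 peak and lay under an island of 9.4 kb with 1199 reads in A2a and of 7.0 kb with 456 reads in D1. At 128 reads per kb in A2a it was the densest promoter island among the receptor genes. Grm8 had both marks, with an H3K4me3 peak of 3061 bp in A2a and 2983 bp in D1 inside the longest promoter island of the receptor genes. That island spanned 29.8 kb with 3030 reads in A2a (exact 95% Poisson interval 2923 to 3140) and 19.2 kb with 1044 reads in D1 (982 to 1109), at percentiles 99.1 and 98.7 of the lists. Grm7 had H3K4me3 alone, at percentiles 84.7 and 73.4. Grm4 had neither mark at its annotated 5′ end, but a peak of 2576 bp in A2a and 2596 bp in D1 lay on another of its own starts 7.997 kb downstream, at percentile 63.9 in both lists.

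GABA-A receptors are chloride channels built mostly from alpha, beta and gamma subunits. Of the 16 genes, 10 had a promoter H3K4me3 peak in both lists, and none had both marks in either list. Among those with H3K4me3 alone were Gabra2, Gabra4 and Gabra5 of the alpha subunits, Gabrb1 and Gabrb2 of the beta subunits, Gabrg1 and Gabrg3 of the gamma subunits, and Gabrd. Gabrb2 ranked at 94.3 in A2a and at 95.9 in D1, where no receptor gene ranked higher. Its window held 2 peaks in each list. The ranked one began downstream of the start and lay mostly beyond the window, and the other, nearer the start, was weaker by −log10 q. Gabra2, an alpha subunit abundant in striatum, ranked higher in D1, at 88.2 against 82.3. Gabrd, whose subunit forms extrasynaptic receptors for tonic inhibition, stood at 73.5 in A2a and 58.2 in D1, a gap of 15.4 points.

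The remaining GABA-A genes are those used mainly outside the forebrain or outside neurons. Gabra6, an alpha subunit of cerebellar granule cells, had neither mark at its promoter in either list, and no island came closer than 264 kb in A2a or 323 kb in D1. Gabrp, for the pi subunit of epithelial tissues, had no H3K4me3 and an island of 5.6 kb with 377 reads in A2a and of 1.8 kb with 68 reads in D1. Islands covered 51.0% of its gene in A2a and 21.9% in D1. The rho subunits of retinal receptors had no H3K4me3 peak in either list at any of their 3 promoters. Gabrr3 had a promoter island of 4.4 kb with 280 reads in A2a (exact 95% Poisson interval 248 to 315) and none in D1, although 2 islands lay further inside the gene in D1 and 3 in A2a. The nearest D1 island lay 9.27 kb from the promoter window. Gabrr1 had 1 island inside the gene in each list, of 2.6 kb with 221 reads in A2a and 1.0 kb with 58 reads in D1. Gabrr2 had neither mark at the promoter and no island in the gene.

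Many GABA-A genes lie in clusters. Those on chromosomes 4 and 5 are described here, the other clusters are not reported, and no direction over clusters is drawn from them. The cluster on chromosome 5, with Gabrg1, Gabra2, Gabra4 and Gabrb1 over 1398 kb, held 0 islands in A2a and 6 in D1, which covered 10.8 kb. Those 6 held 38 to 100 reads each and ranked at percentile 47.3 or lower of the D1 list by reads. The first 2, of 3.6 kb with 100 reads and of 2.2 kb with 74 reads, lay at the 3′ end of Gabrg1, and the others lay outside protein-coding genes. The small cluster of Gabrr2 and Gabrr1 on chromosome 4 had no H3K4me3 peak, 3 islands in A2a and 2 in D1. On chromosome 5, Gabra4 and Gabrb1 start 195 bp apart on opposite strands and shared 1 H3K4me3 peak in each list, so their promoter values are the same measurement. The map of the clusters shows these features by distance.

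**Figure D2:**
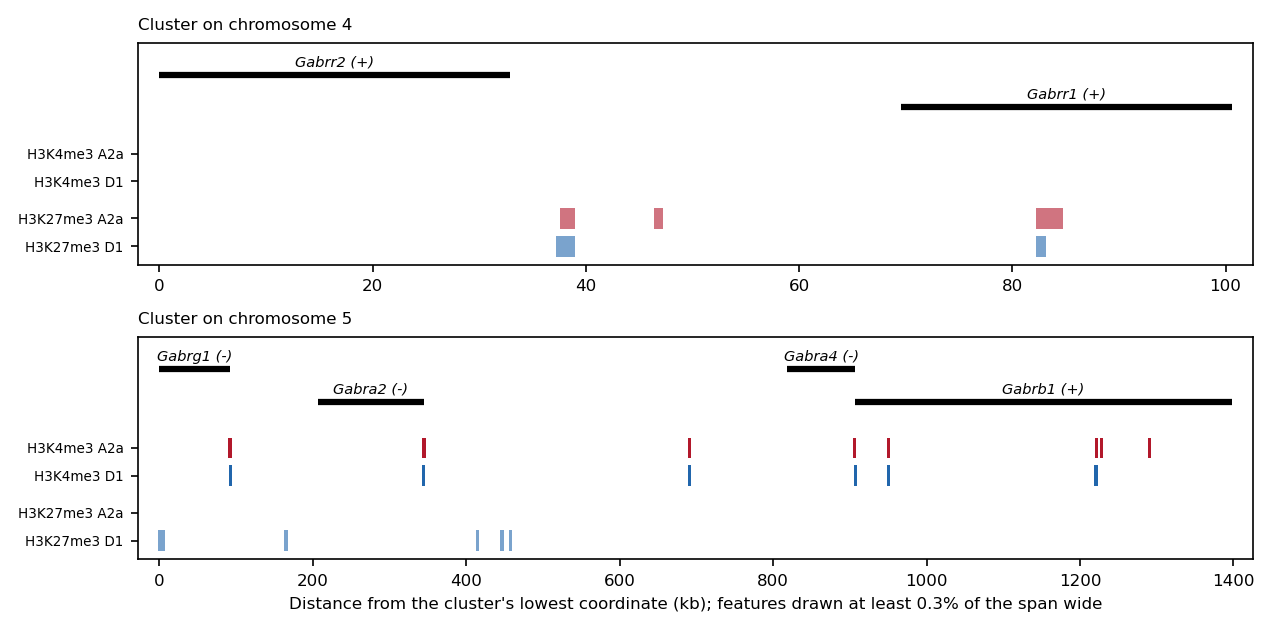
The 2 clusters of GABA-A genes on chromosomes 4 and 5, drawn by distance in kb from the lowest coordinate of each (genes in black with their strand, H3K4me3 peaks in full colour, H3K27me3 islands in pale colour, A2a in red and D1 in blue). H3K4me3 stands at the gene starts of the cluster on chromosome 5 and is missing from that on chromosome 4. The cluster on chromosome 5 holds 6 islands in D1 and 0 in A2a.

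Both GABA-B receptor genes, whose products pair as an obligate heterodimer, carried H3K4me3 alone. Gabbr2, for the subunit that couples to G proteins, stood at percentile 68.7 in A2a against 69.3 in D1, and Gabbr1, for the subunit that binds GABA, at 46.4 and 40.9 with fold enrichments of 2.88 and 2.83. A second peak, on an own start of Gabbr1 4.67 kb downstream, was the stronger one in both lists, at percentiles 62.1 and 57.8. Inside the Gabbr2 gene lay 8 islands in A2a, covering 9.10% of it, and 2 in D1, covering 1.88%.

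Across the 31 receptor promoters with an H3K4me3 peak in A2a, peaks were long and of modest enrichment. Their median length was 2535 bp against 1622 bp over all genes with a promoter peak, and in D1, over 30 promoters, 2248 bp against 1518 bp. The median fold enrichment was 4.87 against 7.67 in A2a and 4.61 against 7.52 in D1. By −log10 q the median percentile was 68.7 against 72.8 in A2a and 61.3 against 71.6 in D1. Of the 30 promoters with a peak in both lists, 18 had a peak of over 2 kb in both. The share of all genes with such peaks was not computed. Gabra4 and Gabrb1 share a peak, which is counted at both promoters. These medians describe the lists and were not tested.

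Of the same 30 promoters, 24 ranked at a higher percentile in A2a and 6 in D1. The 6 that ranked higher in D1 were Gria4, Grin2a, Grik4, Gabra2, Gabrb2 and Gabbr2. The median difference, A2a minus D1, was 6.48 points against 3.87 over all genes, and it ran from −9.49 for Gria4 to 15.8 for Grik1. The peak was longer in A2a at 23 of the 30 promoters. The shares of all genes with a higher rank or a longer peak in A2a were not computed. Over all genes with a promoter peak, the median length was also greater in A2a, 1622 bp against 1518 bp in D1. The plot of H3K4me3 in the 2 cell types shows each of the 30 promoters.

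**Figure D3:**
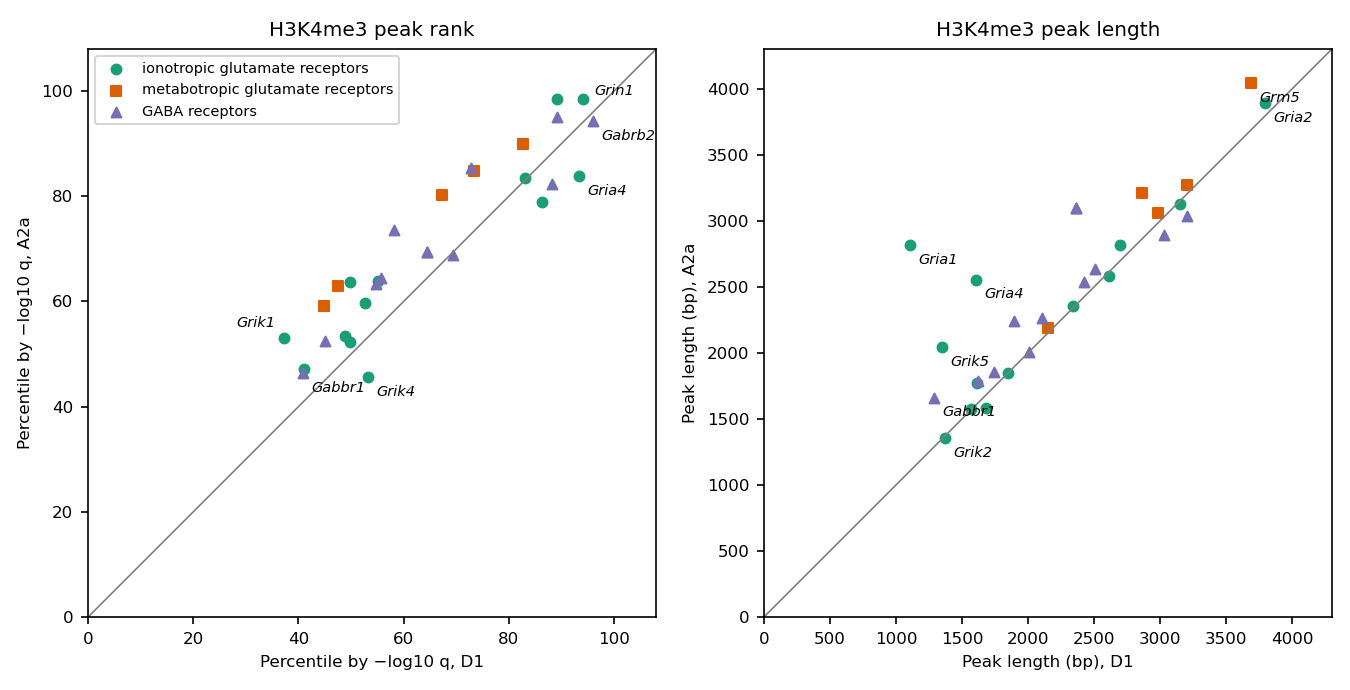
H3K4me3 at the 30 receptor promoters with a peak in both lists, D1 on the horizontal and A2a on the vertical axis, as percentile by −log10 q within each list (left) and as peak length in bp (right). Each point is 1 gene in pooled lists without an error, and the line marks equal values. Gabra4 and Gabrb1 share a peak, so their points coincide. On the left 24 points lie above the line, and on the right Gria1 and Gria4 lie furthest above it, each being 1 peak in A2a with a further peak beside it in D1.

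The 7 promoters with an island in both lists were those of Grin2c, Grin3a, Grin3b, Grik1, Grm6, Grm8 and Gabrp. The island was longer in A2a at 6 of them, with Grin3a the exception. The share of all genes with a longer promoter island in A2a was not computed. Promoter islands of the receptor genes had a median length of 9.4 kb in A2a against 6.2 kb over all genes with one, and of 7.0 kb in D1 against 4.8 kb. Their median percentile by reads was 95.9 against 83.0 in A2a and 95.1 against 83.9 in D1. Of the 27 promoters with H3K4me3 alone, the nearest island lay at a median of 126 kb in A2a and 225 kb in D1, with a range from 1.93 kb (Gabbr2) to 1266 kb (Gabrg3) in A2a and from 6.69 kb (Grik4) to 1267 kb (Gabrg3) in D1.

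Counted over the whole gene, islands touched 14 receptor genes in A2a (28.7% of all genes) and 14 in D1 (21.7%), and 13 genes were in both sets. Grm2 was touched in A2a alone (8.22% of all genes) and Gabrg1 in D1 alone (1.26%). The other 27 receptor genes had no island in the gene in either list, beside 70% of all genes. A promoter H3K4me3 peak in both lists with no island at the promoter or in the gene in either was found at 23 of the 42, beside 44.9% of all genes. Receptor genes are long, with a median of 130 kb against 17.6 kb over all genes, and long genes meet islands more often. Of the 23 receptor genes over 100 kb, 26.1% had an island in each list, beside 49.5% of all 2372 such genes in A2a and 42.4% in D1. Of the 19 shorter ones, 42.1% had one in each list, beside 26% of all shorter genes in A2a and 19.1% in D1.

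The island cover was broader in A2a at all 13 receptor genes with islands in both lists, and the whole A2a list is also the broader one. The share of all genes with broader cover in A2a was not computed. Over the 13 receptor genes the ratio of reads per kb in islands, A2a over D1, had a median of 1.82. It ran from 1.47 (Gabrr1) to 2.01 (Grin3b), and its median was 1.81 over all 4259 genes with islands in both. The receptor genes thus lay close to all genes in this ratio between the lists. The plot of island cover gives the share of each gene.

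**Figure D4:**
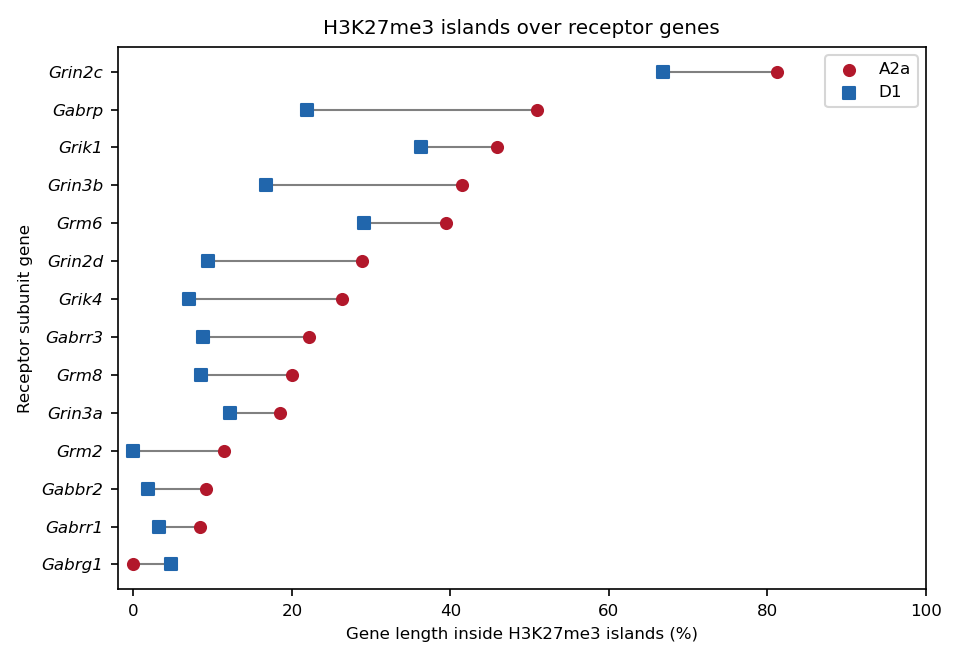
Share of the gene length inside H3K27me3 islands (horizontal axis, %) for 14 receptor genes with an island in either pooled list, A2a as red circles and D1 as blue squares. Grin2c has the largest share in both, 81.2% and 66.8%, the red circle lies to the right in all of them but Gabrg1.

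A few receptor genes held many islands spread inside the gene, with long stretches free of them in some. Grik1, over 394 kb, had 35 islands in A2a that covered 45.9% of the gene and 40 in D1 that covered 36.3%, so D1 had more and shorter ones, with a median of 2.8 kb against 4.0 kb. Of the 35, 25 overlapped a D1 island. Grm8, over 860 kb, had 33 islands covering 19.97% in A2a and 23 covering 8.49% in D1, and 13 of the 33 overlapped a D1 island. Grin3a had 8 in each list, covering 18.4% and 12.2%. In all 3 of these genes the promoter lay under one of the islands.

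Grik4 differed from them in that its promoter carried H3K4me3 alone, while the gene, over 426 kb, had 27 islands covering 26.3% in A2a and 10 covering 6.99% in D1. The island nearest the start began 6.49 kb downstream in A2a, with 9.4 kb and 667 reads, and 7.69 kb downstream in D1, with 7.0 kb and 233 reads. Of the 10 D1 islands, 9 overlapped one in A2a, but 9 of the 27 A2a islands overlapped one in D1. Islands covered 112 kb of it in A2a and 29.8 kb in D1, while the ratio of their reads per kb, 1.82, was close to the median over all genes. An island counts as called or not called at a threshold in lists of unequal read numbers, and what that adds to these differences was not tested. The plot of islands along genes shows the 4 genes by distance from the start.

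**Figure D5:**
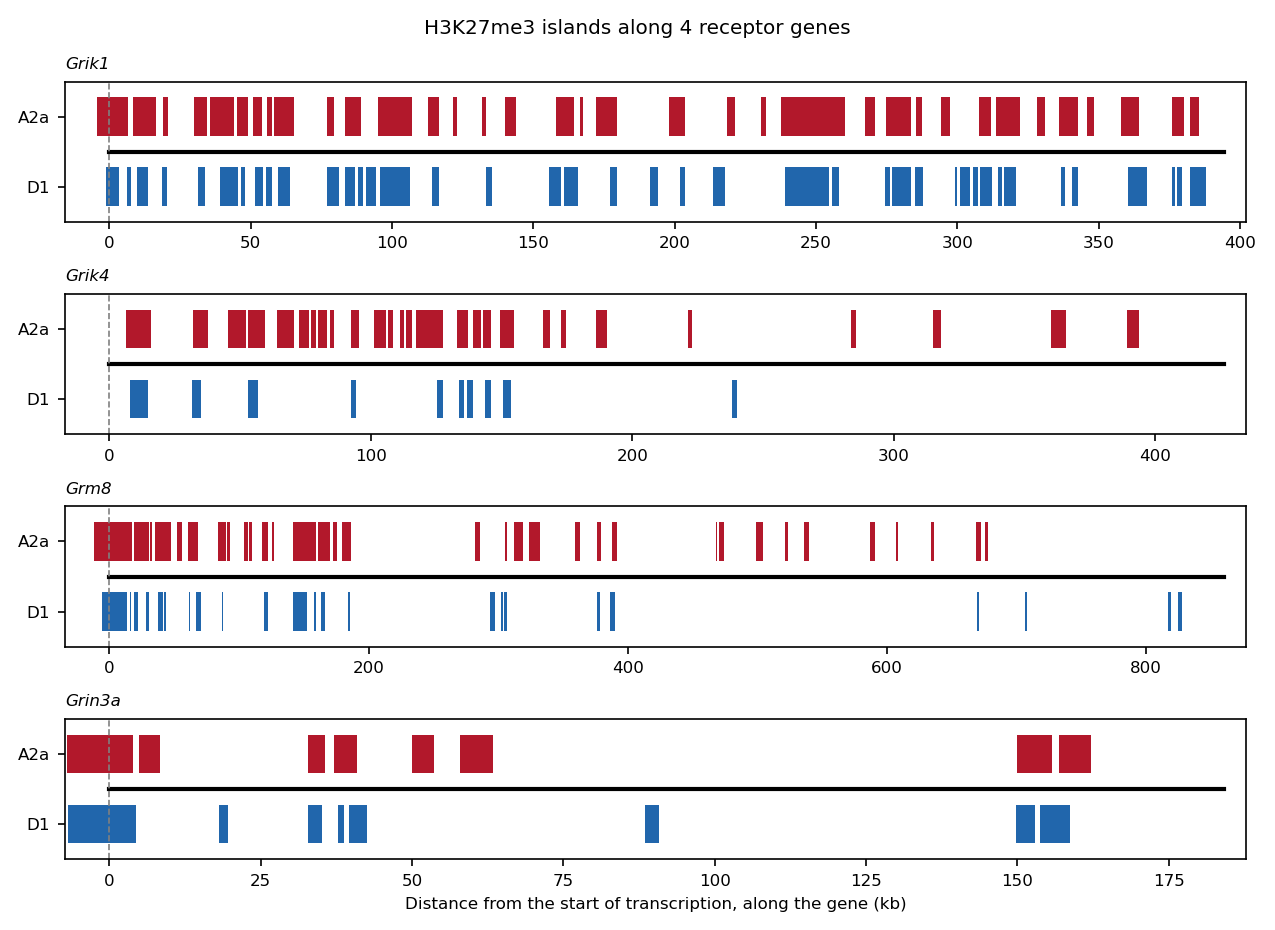
H3K27me3 islands along Grik1, Grik4, Grm8 and Grin3a, by distance in kb downstream of the start (dashed line), with A2a islands in red above the gene and D1 islands in blue below it. Islands lie across the start of Grik1, Grm8 and Grin3a in both lists and begin downstream of it in Grik4, and Grik4 has 27 in A2a and 10 in D1.

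Some genes carried peaks at more than 1 of their annotated starts. Gabrb1 had a second peak on an own start 41.8 kb downstream, at percentiles 79.6 and 67.2, which also lay on the start of the antisense gene Gm38562. Grik2 had a second start 5.51 kb downstream, under 1 peak of 2295 bp in A2a and under the second of 2 peaks, of 607 and 1292 bp, in D1. When the start of any annotated transcript was allowed, Grm4 was among the genes that gained H3K4me3 in both lists, and Grin2d gained it in A2a. Under that setting 8 receptor genes had H3K4me3 at no start in either list, namely Grin2c, Grin3b, Grm6, Gabra6, Gabrp and the 3 rho genes.

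The proteins that assemble, anchor and traffic these receptors were read from a list of 34 partner genes. A promoter H3K4me3 peak was present at 31 of the 34 in each list, beside 59.3% of all genes in A2a and 56.8% in D1. Shank2, Homer1 and Grip2 were the exceptions, all of them scaffolds of glutamate synapses. Promoter islands were present at 5 in A2a and 4 in D1, beside 22.4% and 15.8% of all genes. The AMPA auxiliary genes Cacng5 and Shisa6 and the scaffold Grip2 had one in both. Cnih3, another AMPA auxiliary gene, and Homer3 had one in A2a alone (7.65% of all genes), and Homer2 in D1 alone (1.05%), with 280 reads over 5.6 kb. The Shisa6 island held 1646 reads over 17.2 kb in A2a and 178 over 3.6 kb in D1. No promoter island was found at the 2 kainate auxiliary genes (Neto1 and Neto2), the 4 GABA-A partners, among them gephyrin (Gphn), or the 3 GABA-B auxiliary genes (Kctd8, Kctd12 and Kctd16) in either list, and all 9 carried H3K4me3 in both.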

How the data were processed

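CnR libraries of A2a and D1 nuclei were read from 4 lists, each of which pools 2 replicates (8 of 28 samples). The other 20 samples were not analysed here. They include libraries of the same marks made with other antibodies, and the paper calls antibody choice the factor that mattered most. Per the labels, Bowtie2 (version 2.1.0) and SAMtools (version 0.1.19) were used on mm10, and per the study's methods low-quality and duplicate reads were removed and inserts selected by size. MACS2 gave the deposited H3K4me3 peaks, and the authors' columns used here hold the fold enrichment over local background (a ratio) and the −log10 q-value of each peak. SICER, run by the authors with a control, gave the H3K27me3 islands, each with a deposited count of its reads that is not normalized for depth. Which library served as control is not given in the sources used here. Island lengths are multiples of 200 bp, and islands of 1 list lie at least 800 bp apart.

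Library totals were not in the lists, so depth is unknown, and reads in islands are no measure of it. Percentiles were taken within each list. Genes came from GENCODE vM21, and coordinates count from 1. Promoter windows ran from 2 kb upstream to 1 kb downstream of the TSS with an overlap of at least 1 bp. Intervals are exact Poisson intervals at the 95% level. The members and gene lists were chosen with earlier results of these data known. Receptor genes could be named (some are not reported here, though the counts over all 42 hold them), with full values for genes that differ in class or cover, have promoter islands or hold the highest or lowest value of a subfamily, and for clusters of GABA-A genes (gap up to 500 kb); genes of the partner and marker lists were named where their count is given. Counting was tested on simulated data, where all 2000 simulated promoter peaks were recovered and 0 of 1000 peaks just outside a window were called. No test between cell types was run, since there is no spread between mice. The 14 results were recomputed under 8 settings. Scripts ran in Python 3.11.15 with numpy 2.4.6 and scipy 1.17.1, and figures were drawn with matplotlib 3.10.9.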

Additional observations from a re-analysis of the deposited data

How the results depend on the processing

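The 14 counts and medians over the receptor genes were recomputed under 8 settings, which gave 82 values. Of these, 62 were unchanged and 76 stayed within 1.5 times the reported value. Some of them could not move. Cutting the A2a lists leaves every count that uses the D1 lists alone as it was, and a median cover of 0% cannot fall when islands are removed. With the TSS of any annotated transcript, 7 receptor genes in place of 4 carried both marks in A2a, the additions being Gabbr2, Grik4 and Grin2d, and 2 in place of 1 had an H3K4me3 peak in A2a alone. With a window from 5 kb upstream to 2 kb downstream, 4 in place of 2 had a promoter island in A2a alone (Gabbr2 and Grin2a were added). With islands of at least 2000 bp the count was also 4, since the D1 islands at Grin3b and Gabrp are shorter than that. The 1 H3K4me3 peak in A2a alone, at Grm2, became 0 with a minimum −log10 q of 5 and with the A2a list cut to as many peaks as the D1 list. The median share of a gene covered by islands was 0% in both lists under every setting tried. No paired analysis was possible because each list pools its replicates, and for the same reason no replicate could be left out. The depth of the libraries is unknown, and a missing peak or island was read as not called, not as absent from the cells.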

Other observations

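Some H3K4me3 peaks inside receptor genes lay far from every annotated start. In Grik4, a peak of 1388 bp in A2a, enriched 8.03-fold, and one of 934 bp in D1, enriched 4.56-fold, lay 47.2 kb and 47.3 kb downstream of the TSS, and in Grm3 a peak lay 146 kb downstream in both lists, of 548 bp and 844 bp. These peaks were picked after their values were seen.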
